A study of Mus musculus with 4 samples.

Results

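The insulin-like growth factor (IGF) family genes described here are the ligands Igf1 and Igf2, the receptor gene Igf1r and the binding protein genes Igfbp2 to Igfbp7, picked by symbol from the 20207 genes listed in each deposited table. All 9 were present in every table, and all 9 had enough reads to be tested. They were read in 4 RNA-seq libraries of adipocyte precursor cells, the adipose stromal cells that can become fat cells. Of these, 2 libraries carry the label Per3 KO and 2 are from wild-type (WT) littermates. Per3 is a period gene of the circadian clock, and the KO-labelled libraries were set against WT to ask how its loss bears on the transcriptome. Every library was made from young C57BL/6 mice at ZT2 (2 h into the light phase), from adipose tissue cells freshly sorted as Sca1+ CD45- CD31-. The labels do not give the Per3 allele, the adipose depot, the age in weeks, or how many animals stand behind a library, so a p-value here reflects the spread among libraries that may be technical repeats.

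IGF1 and IGF2 are secreted peptides that signal through the receptor tyrosine kinase IGF1R to promote growth, survival and, in preadipocytes, differentiation. Most IGF outside cells is held by IGF binding proteins, which can block the ligand, carry it or release it locally once proteases cut them. Adipose stromal cells are a known local source of IGF1 and of several binding proteins.

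Total gene reads were 40002999 and 64964300 in Per3 KO 1 and 2, and 37101112 and 27950724 in WT 1 and 2. Per3 itself had 193 and 768 reads in the KO-labelled libraries, against 121 and 170 in WT. As CPM (reads scaled to a common library total) it had 4.66 and 10.5, against 3.16 and 7.31 in WT. The groups overlapped by CPM, so Per3 was not lower as a group in the libraries labelled KO. Its count covers the whole gene and does not check a partial deletion, and the directions given follow the labels. The Sca1 gene Ly6a had 3767 and 2133 CPM in the KO-labelled libraries, against 2597 and 14270 CPM in WT, so WT 2 stood apart by this gate gene. Of 15 fibroblast and precursor markers none was at 0 in any library, while the CD45 gene Ptprc had 4 and 50 reads in the KO-labelled libraries and 0 and 5 in WT. The CD31 gene Pecam1 had 279 and 378 reads in the KO-labelled libraries, against 79 and 206 in WT. By CPM the groups overlapped, at 6.74 and 5.19 in the KO-labelled libraries, against 2.06 and 8.86 in WT. The common biological coefficient of variation was 0.742. In these bulk samples, fewer cells of a type and less RNA per cell cannot be told apart.

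Per length (RPKM), Igfbp6 was the most abundant member in each library, and together with Igfbp3 it was a member whose level in both KO-labelled libraries lay below both WT libraries. Igf1 stood near 60 RPKM in 3 libraries, far above Igf2 in each library, and its read counts could not be compared with WT 2 because that table scored a shorter transcript. Igfbp5 held a larger share of the binding protein transcripts in both KO-labelled libraries than in either WT library, while its own RPKM overlapped between the groups. No member passed the test across all genes. The quasi-likelihood test of edgeR, adjusted by Benjamini-Hochberg, called 0 of 9 members at an adjusted p under 0.05, where it called 0% of the 12494 genes tested. At an unadjusted p under 0.05 it took 0 of 9 members, beside 2.06% of all genes (257), and DESeq2 called 0 members, beside 0.112% of all genes (14). The median log2 fold change was -0.63 over the members and 0.01 over all genes tested, with 4 members positive and 5 negative. The member median is the value of Igfbp4, which turned to 0.19 without WT 2, so it is not read as a shift of the family. With the scored length as an offset, 3 were positive and 6 negative. Among the members the offset turned only Igf1 (0.61 to -0.13). Igf1 lay above the median in both fits, so the median of -0.63 could not move.

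**Figure D1:**
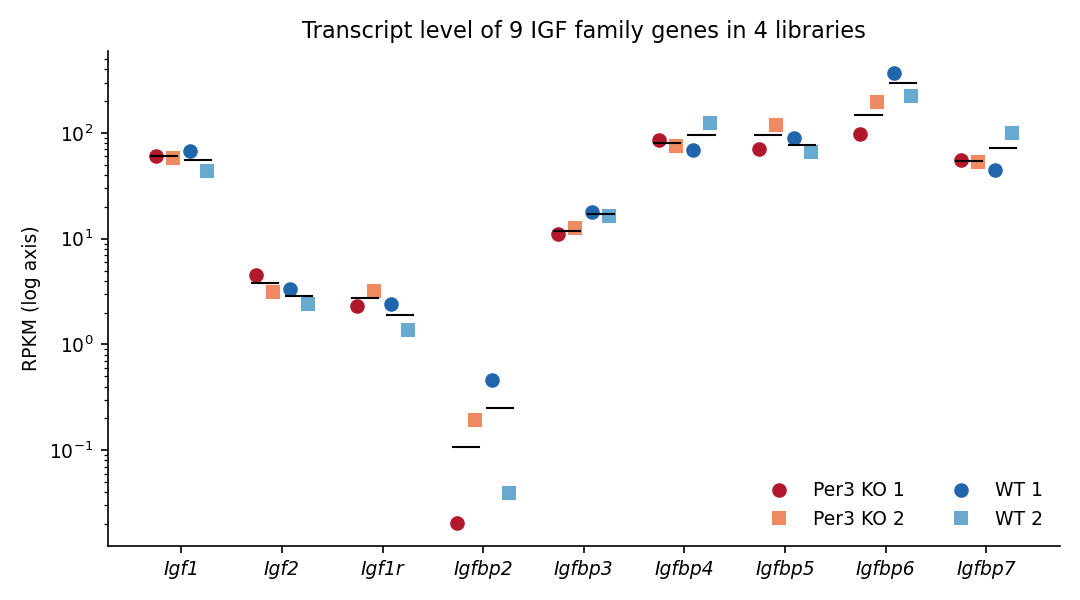
RPKM (reads per kilobase of transcript, scaled to the library total, log axis) of the 9 genes in each of the 4 libraries. Points are libraries and black bars are the means of the 2 KO-labelled and the 2 WT libraries. Igfbp3 and Igfbp6 are the genes in which both KO-labelled points lie below both WT points, while Igfbp2 lies under 0.5 RPKM in every library.

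Igf1 encodes the main growth factor of the family (mm9 chromosome 10, 87321801 to 87399792 in 3 of the tables). Its reads numbered 31800 and 50660 in Per3 KO 1 and 2 in the KO-labelled libraries, against 32190 and 2705 in WT 1 and 2. WT 2 alone looked low, but its table places Igf1 at 87323856 to 87378515, a span of 54660 in place of 77992 bases. The ratio of reads to RPKM gives a scored length of about 1.09 kb in WT 2 and 7.10 kb in each of the other libraries, a ratio of 6.5. That was the largest such ratio among 8866 genes with over 50 reads in every library. No other member had different coordinates between tables.

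On the RPKM scale, which divides by the scored length, Igf1 had 61.2 and 58.5 in the KO-labelled libraries, against 67 and 43.3 in WT. The groups overlapped. RNA was primed with oligo-dT, and whether dividing by length makes values from models of unlike length comparable was not tested. The log2 fold change from reads was 0.61, with a 95% interval from -1.50 to 2.73 (edgeR adjusted p = 1.00). It became -0.13 once the scored length entered the fit as an offset, an alternative added after seeing the data. It was -0.19 without WT 2 and 2.65 without WT 1, and neither passed (adjusted p from 0.183 to 1.00 over the edgeR, DESeq2 and limma alternatives). No direction is read from the reads of Igf1.

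Mouse Igf1 transcripts differ at their 3' coding end. In the GENCODE M21 annotation (GRCm38, a later build than the tables' mm9, so its coordinates are not those of the tables), transcript Igf1-202 spans 77975 bases with a length of 7052, and Igf1-201 spans 55865 bases with a length of 2292. The coding ends of both are shown because the spans of the tables' long and short models lie near these, although the short model's 1.09 kb is less than the length of Igf1-201. Another annotated transcript, with a length of 510, has a span of 55739 bases, as near to that of the short model. It ends within the coding bases shown for Igf1-201. Start and end positions were not compared between the builds. Which transcript the tables scored is not given in the sources used here. Capitals mark the coding bases of the last exon (60 in Igf1-202 at chr10:87930675-87930734 and 144 in Igf1-201 at chr10:87915298-87915441, plus strand), after 18 bases of the exon that both share, read 5' to 3':
Igf1-202: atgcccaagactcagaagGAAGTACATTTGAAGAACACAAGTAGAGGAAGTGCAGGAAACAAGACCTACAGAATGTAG
Igf1-201: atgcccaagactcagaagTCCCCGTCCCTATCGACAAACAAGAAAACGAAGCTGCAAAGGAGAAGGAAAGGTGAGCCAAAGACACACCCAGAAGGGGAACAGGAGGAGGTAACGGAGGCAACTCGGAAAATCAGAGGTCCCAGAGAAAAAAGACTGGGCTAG

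These ends encode different carboxy-terminal extensions of the IGF1 precursor, known as the E peptides, which are cleaved from the mature hormone. The deposited values are 1 per gene and library, so the balance between these ends was not measured.

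**Figure D2:**
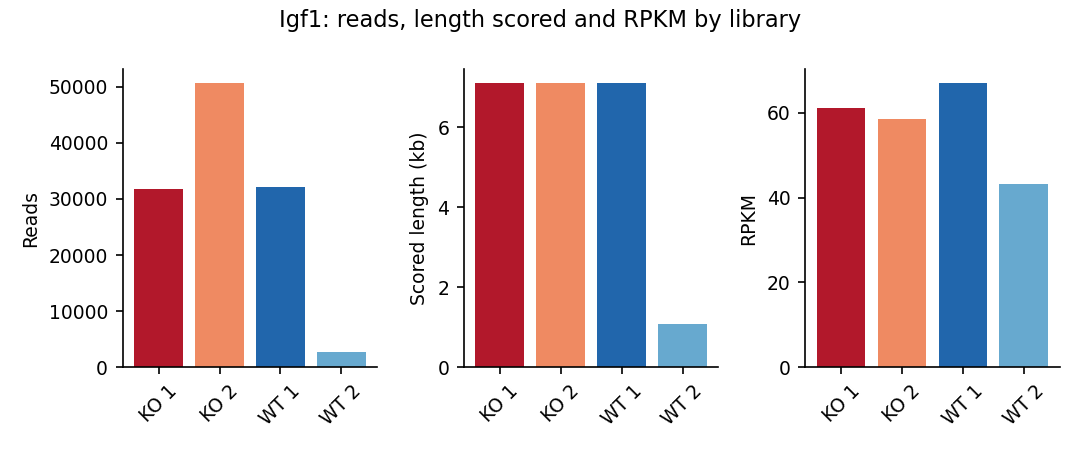
Igf1 in each library as reads (left), transcript length scored in kb, estimated from reads over RPKM (middle), and RPKM (right). Bars are single libraries. The reads of WT 2 (2705) are far below the other 3 libraries, its scored length is 1.09 kb against 7.10 kb, and its RPKM of 43.3 lies closer to the other 3.

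Igf2 encodes the second ligand, a fetal growth factor expressed from the paternal allele (mm9 chromosome 7, 149836673 to 149843386). It had 4.56 and 3.11 RPKM in Per3 KO 1 and 2 in the KO-labelled libraries, against 3.35 and 2.39 RPKM in WT 1 and 2. The highest value was in Per3 KO 1 and the groups overlapped. The log2 fold change of 0.17 had a 95% interval from -1.04 to 1.38 (edgeR adjusted p = 1.00) and was -0.20 without Per3 KO 1. Within each library Igf1 RPKM was 13.4 and 18.8 times that of Igf2 in the KO-labelled libraries, against 20.0 and 18.1 times in WT, where the value of WT 2 uses the short Igf1 model. H19, the imprinted non-coding RNA that neighbours Igf2, had 59.5 and 52.0 RPKM in the KO-labelled libraries, against 52.4 and 17.8 in WT.

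Igf1r encodes the receptor that both ligands activate (mm9 chromosome 7, 75097143 to 75378553). Its RPKM was 2.31 and 3.23 in the KO-labelled libraries, against 2.41 and 1.36 in WT. WT 2 was lowest and Per3 KO 2 highest, with WT 1 between the KO-labelled libraries. The log2 fold change was 0.32, with a 95% interval from -0.79 to 1.42 (edgeR adjusted p = 1.00). The related insulin receptor gene Insr was lower per length, at 0.742 and 0.962 RPKM in the KO-labelled libraries, against 0.826 and 0.798 in WT. Igf2r, whose product takes up IGF2 and carries it to lysosomes, had 5.91 and 6.56 RPKM in the KO-labelled libraries, against 5.42 and 3.35 in WT. Both KO-labelled values of Igf2r lay above both WT values, with a log2 fold change of 0.27 ± 0.48 (SE) that did not pass.

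Igfbp6 encodes a binding protein with a preference for IGF2 (mm9 chromosome 15, 101974617 to 101979943). It had 97.4 and 198 RPKM in Per3 KO 1 and 2 in the KO-labelled libraries, against 367 and 222 RPKM in WT 1 and 2. Per3 KO 1 was lowest and WT 1 highest, and the groups did not overlap, although the gap between Per3 KO 2 and WT 2 was small beside the spread within either group. As CPM, which use another library scaling, the values were 223 and 428 in the KO-labelled libraries, against 839 and 706 in WT. The means were 325 ± 145 CPM in the KO-labelled libraries and 772 ± 94.3 CPM in WT (SD, n = 2 each). The difference on the log2 scale was -1.25 ± 0.63 (SE), with a 95% interval from -2.73 to 0.23, an unadjusted p of 0.087 and an edgeR adjusted p of 1.00. It kept its sign in the 15 alternatives read for single genes. It did not pass in any fit that used every library (DESeq2 unadjusted p = 0.0174, adjusted p = 1.00). Leaving out a library gave values from -1.79 (without Per3 KO 2) to -0.87 (without Per3 KO 1).

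Igfbp3 encodes the main carrier of IGFs in blood, made in tissues by stromal and endothelial cells (mm9 chromosome 11, 7106096 to 7113926). It had 11.1 and 12.5 RPKM in the KO-labelled libraries, against 17.9 and 16.4 RPKM in WT, and the replicates of each group lay close together. On the CPM scale the means were 49.6 ± 2.47 in the KO-labelled libraries and 88.1 ± 15.2 in WT (SD, n = 2 each). The difference on the log2 scale was -0.83 ± 0.47 (SE), with a 95% interval from -1.94 to 0.28 (edgeR adjusted p = 1.00). It too kept its sign in the 15 alternatives read for single genes, from -0.99 without WT 1 to -0.50 with limma on log2(RPKM + 1). It did not pass in any fit that used every library. Both members lay below WT in both KO-labelled libraries on either scale. That is 2 of 9 members, where 11.5% of all genes tested did so by CPM and 6.64% by RPKM. No member lay above WT in both, where 14.6% of all genes did so by CPM and 21.2% by RPKM. With so few members these counts say little beyond the genes themselves.

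The summed skeletal muscle and mature adipocyte markers separated the groups in the same direction as Igfbp3 and Igfbp6. So did the fibroblast and precursor sum. The sums of leukocyte, endothelial, mural, mesothelial, epithelial, hepatocyte, Schwann, erythroid and proliferation markers overlapped between the groups. The summed level of 8 skeletal muscle markers was 24.7 and 23.4 CPM in the KO-labelled libraries, against 59.1 and 94.3 CPM in WT. All 6 tested muscle markers had a negative log2 fold change, and of the 8 markers 2 and 2 were at 0 in the KO-labelled libraries, against 0 and 0 in WT. The 2 tested adipocyte markers and the 1 tested mesothelial marker were negative too. All 7 tested hepatocyte and all 5 tested proliferation markers were positive. Of all genes tested 6316 were positive and 6178 negative. The sum of the 5 mature adipocyte markers in the tables was 4.85 and 5.94 CPM in the KO-labelled libraries, against 12.5 and 10.9 CPM in WT, with 2 and 3 at 0 in the KO-labelled libraries, against 1 and 1 in WT, and Lep at 0 in all. The sum of the 15 fibroblast and precursor markers was 85294 and 76434 CPM in the KO-labelled libraries, against 89322 and 127625 CPM in WT. By CPM, 3 of 6 tested muscle, 1 of 2 adipocyte and 2 of 15 fibroblast and precursor markers lay below WT in both KO-labelled libraries. In all genes tested 11.5% did so. Above WT in both lay 0 muscle, 0 adipocyte and 1 fibroblast and precursor marker, beside 14.6% of all genes. The part of these cells in Igfbp3 and Igfbp6 was not tested.

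The 250 bases before the annotated start of Igfbp3 and Igfbp6 are shown because these 2 members separated the groups (RefSeq, GRCm38.p6, each read 5' to 3' on the strand of the gene). Capitals mark TATAAA or TATATA on either strand. The Igfbp3 window is chr11:7213924-7214173 on the minus strand and the Igfbp6 window is chr15:102143936-102144185 on the plus strand:
Igfbp3: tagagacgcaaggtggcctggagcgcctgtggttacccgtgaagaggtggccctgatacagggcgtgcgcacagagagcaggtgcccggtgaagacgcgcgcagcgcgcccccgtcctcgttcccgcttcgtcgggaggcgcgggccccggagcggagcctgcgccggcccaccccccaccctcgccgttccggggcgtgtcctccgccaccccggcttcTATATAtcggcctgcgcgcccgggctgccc
Igfbp6: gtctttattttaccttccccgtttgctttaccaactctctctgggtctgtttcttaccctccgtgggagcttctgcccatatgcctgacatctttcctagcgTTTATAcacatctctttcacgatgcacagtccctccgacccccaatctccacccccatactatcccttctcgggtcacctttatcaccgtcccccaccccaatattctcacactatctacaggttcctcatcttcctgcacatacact

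The match in Igfbp3 begins 30 bases before the start and that in Igfbp6, on the other strand, 148 bases before it. RefSeq windows of 300 bases (250 before to 50 after a start) were at hand for all 9 members, 13 windows in all. CACGTG, the E-box to which the clock factors BMAL1 and CLOCK can bind, was in 1 of these 13 windows, that of Igfbp2, and in 7.15% of all 32851 windows. It reads the same on both strands, begins 142 bases before that start and is shown in capitals with 30 bases on each side (chr1:72824308-72824373, plus strand):
Igfbp2: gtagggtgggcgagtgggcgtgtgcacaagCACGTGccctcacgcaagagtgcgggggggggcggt

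TTATGTAA, a D-box of the PAR bZIP factors, was in 0 of the 13 windows and in 0.938% of all windows. AGGTCA, a nuclear receptor motif, was in 3 windows, of Igf1, Igf1r and Igf2, and in 16.3% of all. TATAAA was in the windows of Igfbp4 and Igfbp6 and in 13.6% of all, and TATATA in that of Igfbp3 and in 5.67% of all. Each motif was searched on both strands, and TATAAA and TATATA can overlap each other. These matches are descriptions of the letters and not evidence of binding.

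Igfbp5 and Igfbp4 encode binding proteins that stromal cells secrete and that proteases cut to free IGFs. Igfbp5 (mm9 chromosome 1, 72904639 to 72921439) had 70.7 and 120 RPKM in the KO-labelled libraries, against 88.8 and 65.4 RPKM in WT. Per3 KO 2 was highest, the other 3 libraries lay close, and the log2 fold change of 0.04 had a 95% interval from -1.43 to 1.51 (edgeR adjusted p = 1.00). Its sign turned to -0.35 without Per3 KO 2 and to -0.01 with DESeq2 size factors, so no direction is given. Igfbp4 (mm9 chromosome 11, 98902574 to 98913957) had 85.4 and 75.0 RPKM in the KO-labelled libraries, against 68.8 and 124 in WT. WT 2 was high and WT 1 was the lowest of the 4, and the log2 fold change of -0.63 turned to 0.19 without WT 2 (edgeR adjusted p = 1.00 in both).

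Igfbp7 encodes a more distant relative that binds IGFs weakly and is abundant in vessel walls (mm9 chromosome 5, 77778265 to 77837070). It had 54.9 and 53.5 RPKM in the KO-labelled libraries, against 44.5 and 99.4 RPKM in WT. As with Igfbp4, WT 2 was high and WT 1 lowest, and the log2 fold change of -0.79 turned to 0.25 without WT 2 (edgeR adjusted p = 1.00 in both). The RPKM ratio of Igfbp7 to Igfbp4, chosen after its values were seen, stayed between 0.642 and 0.799 in the 4 libraries. The tables place 88 bases of Igfbp7 over Polr2b, and strand use in counting is not given, so reads there are uncertain. Of 9 endothelial markers 6 were detected in each KO-labelled library, and 6 and 7 in WT, with summed levels of 73.8 and 174 CPM in the KO-labelled libraries, against 160 and 135 CPM in WT. The endothelial cadherin gene Cdh5 had 1 and 78 reads in the KO-labelled libraries, against 0 and 48 in WT. Of 11 mural markers 10 were detected in each KO-labelled library, and 10 and 8 in WT, with sums of 95.7 and 79.9 CPM in the KO-labelled libraries, against 68.1 and 104 CPM in WT. Of the 10 mural markers tested, 4 lay above WT in both KO-labelled libraries by CPM and 0 below, beside 14.6% and 11.5% of all genes. The mural sums overlapped between the groups. The pericyte gene Rgs5 had 52.0 and 173 reads in the KO-labelled libraries, against 2.96 and 0 in WT (unadjusted p = 0.0481, edgeR adjusted p = 1.00). Higd1b was at 0 in all libraries. The part of vessel cells in Igfbp7 was not tested.

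Igfbp2, a binding protein made by liver and by preadipocytes among others, was near the detection limit (mm9 chromosome 1, 72871077 to 72899045). Only 1.96 and 31.0 reads were assigned to it in the KO-labelled libraries, against 41 and 2.92 in WT, so that 1 library of each group lay under a floor of 3 reads. The log2 fold change of -1.32 had a 95% interval from -6.45 to 3.8 (edgeR adjusted p = 1.00) and was 0.88 without WT 1. By CPM, the 2 libraries of each group differed more from each other than the group means did. The summed level of 8 hepatocyte markers was 0.749 and 1336 CPM in the KO-labelled libraries, against 259 and 46.0 CPM in WT, with 1 and 0 markers at 0 in the KO-labelled libraries and 1 and 1 in WT. The libraries with the larger sum in each group were also those with more Igfbp2 reads, and the part of liver RNA in Igfbp2 was not tested. Igfbp1, a liver binding protein, had 0 and 12 reads in the KO-labelled libraries, against 0 and 0 in WT. Igf1, which liver also makes, was at 61.2 and 58.5 RPKM in the KO-labelled libraries, against 67 and 43.3 in WT. The part of liver RNA in Igf1 was not tested.

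**Figure D3:**
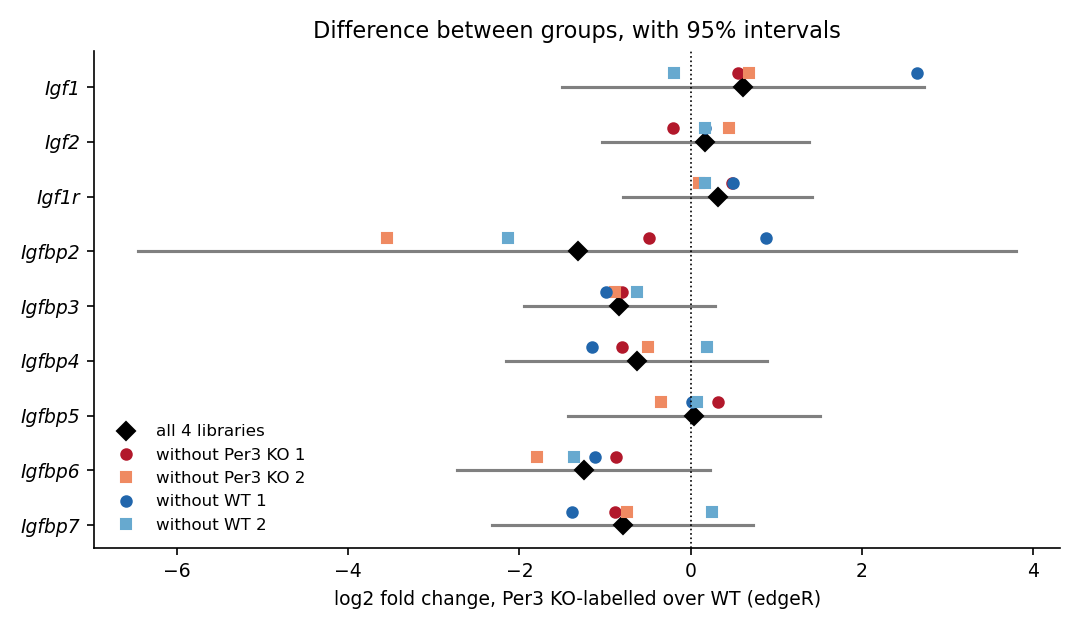
Log2 fold change of KO-labelled over WT libraries for each member from edgeR (black diamonds) with its 95% interval (grey lines), and the same with 1 library left out (coloured points). Every interval spans 0, and the points of Igfbp3, Igfbp6 and Igf1r stay on 1 side of 0 when a library is left out.

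Shares within a library do not depend on how libraries are scaled, but the share of a gene rises when other genes in the sum fall. Igfbp6 held 30.5% and 43.1% of the summed RPKM of the 6 binding protein genes in Per3 KO 1 and 2 in the KO-labelled libraries, against 62.5% and 42.0% in WT 1 and 2, and the groups overlapped through Per3 KO 2 and WT 2. With Igfbp7 left out of the sum they did not, at 36.8% and 48.7% in the KO-labelled libraries, against 67.6% and 51.8% in WT (exact permutation p = 0.333). Igfbp5 held 22.1% and 26.2% in the KO-labelled libraries, against 15.1% and 12.4% in WT, without overlap. Its own RPKM did overlap, at 70.7 and 120 in the KO-labelled libraries, against 88.8 and 65.4 in WT. Over all 6 genes no other RPKM share separated the groups, while from reads the shares of Igfbp6 and Igfbp3 did too, lower in the KO-labelled libraries by 14.1 and 0.684 percentage points on average (exact permutation p = 0.333 each). The mean share of Igfbp5 was 24.1% ± 2.86 in the KO-labelled libraries and 13.8% ± 1.91 in WT (SD, n = 2 each), with a two-sided exact permutation p = 0.333 (adjusted over the 6 genes, p = 1.00). With 2 libraries a group 0.333 is the smallest p this test allows. Igfbp4 held 26.7% and 16.3% in the KO-labelled libraries, against 11.7% and 23.6% in WT, and Igfbp7 held 17.2% and 11.7% in the KO-labelled libraries, against 7.58% and 18.8% in WT. Igfbp3 held from 2.73% to 3.46% in the 4 libraries, and Igfbp2 less than 0.1% in each. Igfbp6 RPKM was 1.38 and 1.65 times that of Igfbp5 in the KO-labelled libraries, against 4.14 and 3.39 times in WT, a ratio chosen after its values were seen and given with no test.

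**Figure D4:**
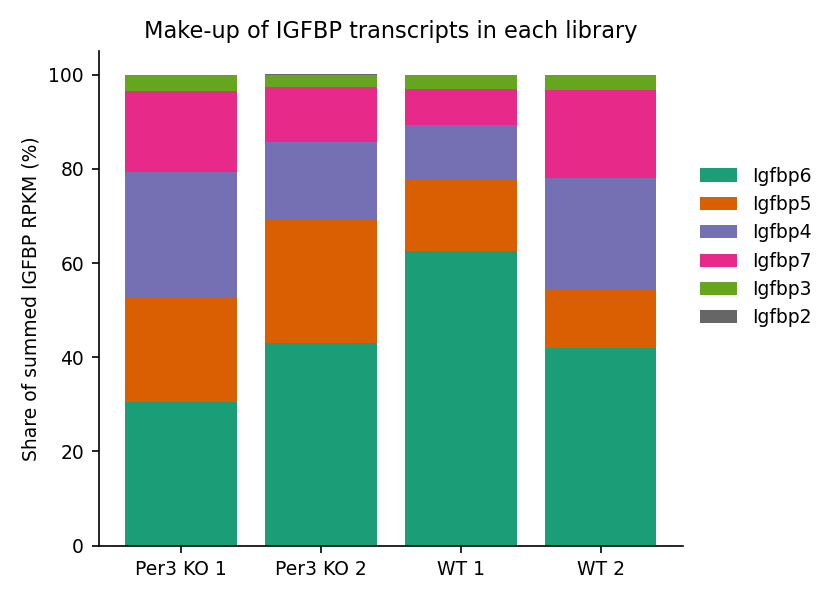
Share of the summed IGFBP RPKM (%) held by each of the 6 binding protein genes, 1 stacked bar per library. Igfbp6 takes the largest part of each bar, from 30.5% to 62.5%, and the Igfbp5 band is wider in the KO-labelled libraries (22.1% and 26.2%) than in WT (15.1% and 12.4%).

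The summed RPKM of the 6 binding protein genes was 319 and 459 in the KO-labelled libraries, against 588 and 527 in WT, and that of the 2 ligand genes was 65.8 and 61.6 in the KO-labelled libraries, against 70.4 and 45.7 in WT. Ligand over binding protein RPKM was therefore 0.206 and 0.134 in the KO-labelled libraries, against 0.120 and 0.0867 in WT. The log2 ratio was higher by 0.71 in the KO-labelled libraries (two-sided exact permutation p = 0.333, the smallest this test allows). In WT 2 Igf1 was scored over the short model, and the difference was 0.47 without WT 2, 0.40 without Per3 KO 1, and 1.63 from reads in place of RPKM (exact permutation p = 0.667), a scale on which the scored length enters. These are transcript levels, and neither secreted protein nor free ligand was measured.

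By mean RPKM over the KO-labelled libraries, the order of levels was Igfbp6 (147), Igfbp5 (95.3), Igfbp4 (80.2), Igf1 (59.9), Igfbp7 (54.2), Igfbp3 (11.8), Igf2 (3.84), Igf1r (2.77) and Igfbp2 (0.107). In WT it was Igfbp6 (294), Igfbp4 (96.5), Igfbp5 (77.1), Igfbp7 (71.9), Igf1 (55.2), Igfbp3 (17.1), Igf2 (2.87), Igf1r (1.89) and Igfbp2 (0.251). Some neighbours in these orders crossed between the libraries of a group, so their places are not settled. Igfbp5 and Igfbp4 crossed in both groups, Igf2 and Igf1r in the KO-labelled group, and Igfbp5 and Igfbp7 as well as Igfbp7 and Igf1 in WT. By RPKM, Igfbp6 ranked 536 and 248 of all genes in the KO-labelled libraries, against 132 and 266 in WT.

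Other genes of the pathway were read from lists of 5 kinds, and edgeR called 0 of their members higher and 0 lower, also at an unadjusted p under 0.05. Of all 12494 genes tested it called 0% at an adjusted and 2.06% at an unadjusted p under 0.05. In log2 fold change 6316 of all genes were positive and 6178 negative. Of 12 tested genes of the extracellular IGF system, 5 were positive and 7 negative in log2 fold change (median -0.12). Stc2, whose product inhibits the IGFBP protease PAPP-A, had 0.979 and 0.146 RPKM in the KO-labelled libraries, against 2.2 and 1.73 in WT, with a log2 fold change of -2.05 ± 1.12 (SE) that was -4.07 without Per3 KO 1 and -1.23 without Per3 KO 2. PAPP-A's own gene Pappa was low, at 22 and 66 reads in the KO-labelled libraries, against 49 and 49 in WT. By CPM it had 0.531 and 0.906 in the KO-labelled libraries, against 1.28 and 2.11 in WT, a difference that did not pass. The lysosomal protease gene Ctsd had 242 and 269 RPKM in the KO-labelled libraries, against 240 and 116 in WT. Vtn, which encodes the matrix and plasma protein vitronectin and is a liver gene too, had 37.5 and 58.2 RPKM in the KO-labelled libraries, against 61.5 and 11.3 in WT.

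Of 34 tested genes of IGF and insulin receptor signalling, 15 were positive and 19 negative (median -0.07). Rptor, which encodes the mTORC1 subunit raptor, had 1.44 and 2.25 RPKM in the KO-labelled libraries, against 0.833 and 0.563 in WT, a log2 fold change of 1.15 ± 0.57 (SE). Pdpk1, the kinase that activates AKT, had 2.23 and 2.76 RPKM in the KO-labelled libraries, against 1.28 and 1.42 in WT. Foxo1, a transcription factor that AKT holds out of the nucleus, had 3.23 and 4.37 RPKM in the KO-labelled libraries, against 3.74 and 8.76 in WT. The mTORC1 activator Rheb had 9.99 and 9.17 RPKM in the KO-labelled libraries, against 9.99 and 19.2 in WT. Foxo1 and Rheb were each high in WT 2, and their log2 fold changes of -1.11 and -0.98 were -0.01 and -0.09 without it.

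Of 8 genes of the growth hormone axis, which induces Igf1, 3 were positive and 5 negative (median -0.38). Ghr, the growth hormone receptor gene, was scored over 4.19 kb in Per3 KO 1 and WT 1 and over 1.07 kb in Per3 KO 2 and WT 2, so its reads are not compared directly. With the scored length as an offset its log2 fold change was -0.71 and did not pass. Its RPKM was 4.62 and 4.07 in the KO-labelled libraries, against 5.30 and 6.18 in WT. As for Igf1, whether dividing by length makes these values comparable was not tested. The kinase gene Jak2 had 7.50 and 10.2 RPKM in the KO-labelled libraries, against 7 and 3.24 in WT. Socs2, a feedback inhibitor that growth hormone induces, had 2.30 and 1.84 RPKM in the KO-labelled libraries, against 1.71 and 4.82 in WT. Stat5b had 2.03 and 3.67 RPKM in the KO-labelled libraries, against 3.53 and 2.70 in WT, and Socs3 had a log2 fold change of -0.35 ± 0.55 (SE).

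The Igf2 locus and mRNA binding list had 3 tested genes, 1 positive and 2 negative (median -0.05), among them H19 (0.50 ± 0.59, SE) and Igf2bp2 (-0.05 ± 0.64). Igf2as, an antisense gene of the locus, was at 0 in all libraries. Of 7 surface partners of binding proteins, 6 were positive and 1 negative (median 0.14). They included the integrin genes Itga5 (0.45 ± 0.56), Itgb1 (0.29 ± 0.54) and Itgav (0.14 ± 0.49) and, as the negative gene, Tmem219 (-0.49 ± 0.57), which encodes a receptor of IGFBP3. All of these are log2 fold changes with their SE, and none passed (edgeR adjusted p = 1.00 each). The values of H19, Socs3 and Itga5 rested on WT 2, being 0.06, -0.06 and 0.19 without it.

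**Figure D5:**
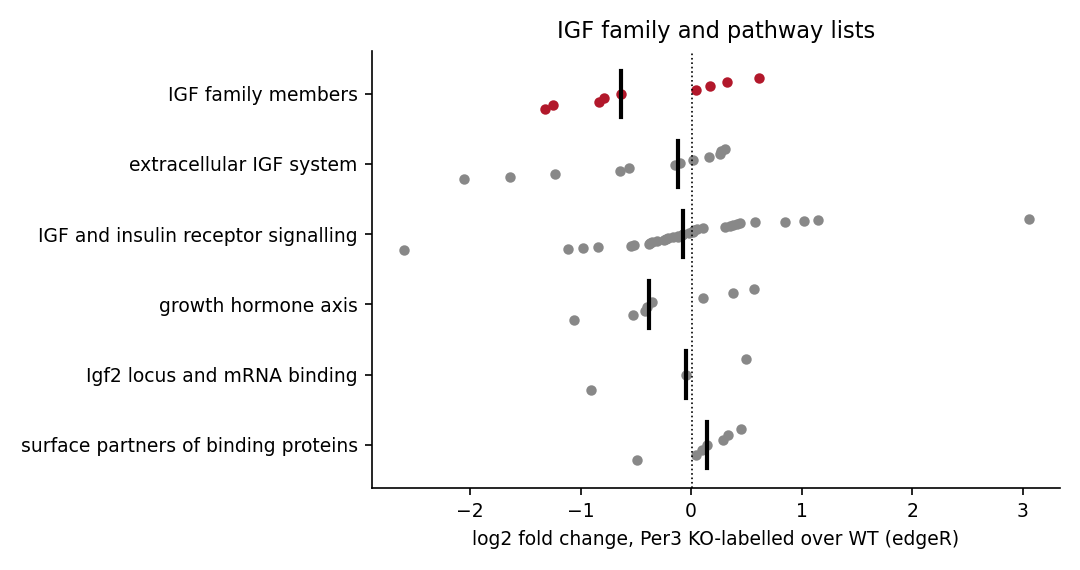
Log2 fold change (edgeR, KO-labelled over WT) of each tested gene in the IGF family (red) and in 5 pathway lists (grey), with the median of each list as a black bar and the median of all genes as a dotted line. The family median of -0.63 lies below 0.01 for all genes, and the list medians lie between -0.38 and 0.14. The family median is the value of Igfbp4, which was 0.19 without WT 2.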

How the data were processed

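RNA was read in 4 libraries, grouped by their titles. Per the labels' protocols, sorted cells were lysed at once, and total RNA was extracted and primed with oligo-dT. Each table deposited by the authors gives, per gene, an estimated count without normalisation and RPKM, which the authors scaled by transcript length and library total, both per the file headers. The submitters' processing notes list STAR 2.4.0, Cufflinks, Cuffdiff 2.2.1 and the build mm9 with no roles. Counter, annotation and strand use: not given in the sources used here. Between 8.85% and 12.0% of values were not whole (tolerance 1e-09), and counts were rounded.

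Genes were kept by filterByExpr (minimum count 10, minimum total 15), scaled by TMM (factors 1.04 and 1.12 in Per3 KO 1 and 2, 1.03 and 0.832 in WT 1 and 2) and compared with edgeR 4.0.16 (glmQLFit, glmQLFTest, two-sided, genotype only; R 4.3.3), and p was adjusted by Benjamini-Hochberg over 12494 genes with a threshold of 0.05. The fit was also run on simulated counts, which are not used here to say what size of change this design can detect. CPM use the TMM-scaled totals. The SE is the log2 fold change over the square root of F, and the interval is at 95%. A floor of 3 reads is 0.0462 to 0.107 CPM of the unscaled totals, a limit for counting error alone, because PCR copies cannot be told from separate molecules here. Scored length came from reads over RPKM, set to bases by the median of 529 genes with 1 GENCODE transcript. Exact permutation tests were used for shares and ratios.

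The members and lists were chosen with earlier results of these data known. Named genes were all members, Per3, Ly6a, Ptprc, Pecam1, Igf2r, H19, Insr, Ghr and Pappa, and up to 4 genes per pathway list by smallest unadjusted p averaging 1 RPKM or more, and for the most abundant ligand and binding protein gene the 3 genes most like it. Igfbp1, Igf2as, Polr2b and single cell type markers were added after their values were seen. Alternatives were other scalings, filters, DESeq2 1.42.0, limma 3.58.1 on log2(RPKM + pseudocount), a block for replicate number, and each library left out in turn. The length offset and crossed block were added after seeing the data. The crossed block was read for counts of genes past the threshold and not for the values of single genes.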

Additional observations from a re-analysis of the deposited data

How the results depend on the processing

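No member passed under any of the alternatives run. Of 129 alternative values of the 9 members, 119 kept the sign of the main fit and 10 turned, and the cause was not tested. For Igf1 the scored length differs between the libraries. Igfbp2 could not be fitted with limma or under the filter at 5 RPKM on average, and Igf2 and Igf1r not under that filter. Library totals alone moved the median of all genes by 0.20 and limma on log2(RPKM + 0.5) by 0.28 (log2). The direction of a single gene is therefore read only where it held in each scaling. Counts of positive and negative genes take each sign as fitted, and so include Igfbp5 and Igf2bp2, whose signs turned. The genes past the threshold were 0 in the main fit, 4 with no filter, 1 under the filter at 5 RPKM, 14 with DESeq2, 1 with each limma pseudocount (0.5, 0.1 and 1), 1 with the replicate block, 2 with the crossed block and from 0 to 1 with a library left out. Deviations of same-numbered libraries correlated at -0.142 over genes, which cannot show whether the numbers mark pairs. Ghr shared its scored length between same-numbered libraries. The replicate block called 0 members.

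Igf1 turned to -0.13 with the length offset. Igfbp5 turned to -0.01 with DESeq2 size factors and with DESeq2 and to -0.00 with the replicate block. Igf2bp2 turned to 0.07 with library totals, 0.39, 0.45 and 0.32 with limma (pseudocounts 0.5, 0.1 and 1) and 0.19 with the replicate block, and Insr to 0.01 with library totals. Without each library in turn, values ran from -0.19 to 2.65 for Igf1, -0.20 to 0.45 for Igf2, -3.55 to 0.88 for Igfbp2, -1.15 to 0.19 for Igfbp4, -0.35 to 0.32 for Igfbp5, -1.39 to 0.25 for Igfbp7, -0.40 to 1.56 for Vtn, -1.73 to 0.25 for Socs2, -0.66 to 1.08 for Igf2bp2, -1.0 to 0.32 for Tmem219, -0.06 to 0.38 for Itgav, -0.43 to 0.01 for Insr and -1.93 to 0.35 for Ghr, whose reads were scored over unequal lengths (-0.71 with the length offset). Among genes that kept their sign, values ran from -4.07 to -1.23 for Stc2, -1.73 to -0.01 for Foxo1, -1.52 to -0.09 for Rheb, 0.06 to 1.14 for H19, 0.06 to 0.63 for Ctsd, 0.30 to 0.93 for Jak2 and for Pdpk1, -0.84 to -0.09 for Stat5b, -0.58 to -0.06 for Socs3 and 0.19 to 0.77 for Itga5. Differences in IGFBP share (percentage points) turned to -0.684 for Igfbp3, -0.295 for Igfbp4 and -0.885 for Igfbp7 with reads in place of RPKM. With a library left out they ran from -0.0544 to 0.0169 for Igfbp2, -0.347 to 0.386 for Igfbp3, -2.04 to 9.84 for Igfbp4, -4.43 to 6.84 for Igfbp7, 8.36 to 12.4 for Igfbp5 and -25.7 to -5.26 for Igfbp6.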

Other observations

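The genes whose CPM over the 4 libraries ran most like those of Igfbp6, among 6803 others with a mean of at least 10 CPM, were 9130401M01Rik, AU040829 and St7l, with root mean square differences of centred log2 CPM of 0.106, 0.123 and 0.150. St7l had 6.83 and 12.0 CPM in the KO-labelled libraries, against 19.4 and 18.9 in WT. For Igf1 they were the transcription factor subunit gene Gtf2f2, the adhesion molecule gene Ncam1 and the interferon-induced gene Ifit3 (0.0825, 0.0883 and 0.0884), all low in WT 2. Ifit3 had 138 and 149 CPM in the KO-labelled libraries, against 168 and 22.9 in WT. The low Igf1 value in WT 2 is on the short model, so this likeness describes the deposited counts only. With 4 libraries such likeness is a description and says nothing of shared function.

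Scored lengths differed between tables by over 1.1 times for 117 of 8866 genes with over 50 reads in every library, and coordinates differed for 486 of 20207 genes.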
